A study of Homo sapiens with 4 samples.

Results

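The comparison described here set HEK293 cells given siRNA against CDC73 beside HEK293 cells given control siRNA, both plated sparsely. It used the 2 arrays labelled as sparse, out of 4 arrays in the study, and every probe that carried 1 gene symbol in the platform annotation, which was 28098 of the 48803 probes with values. In each group 100 pmol of siRNA was transfected, the cells were moved to new dishes after 24 hours, and RNA was taken after 24 further hours. Sparse cells were moved to 100 mm dishes. The other 2 arrays came from cells that received the same siRNAs and were moved to 35 mm dishes to be confluent. They entered the normalization and the choice of probe, and otherwise give a second look at genes and lists described in sparse cells. Every group had 1 array, so no difference has a replicate check, none has a p-value, and sizes alone are described. The labels do not say whether the dishes of different density came from separate transfections. HEK293 is an established human cell line, started from embryonic kidney, that carries the adenoviral genes E1A and E1B.

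The product of CDC73, parafibromin, belongs to the PAF1 complex. The complex rides with elongating RNA polymerase II and is needed for monoubiquitylation of histone H2B and for the histone H3 methylation that follows it. It also recruits factors that cleave and release the ends of transcripts. Among these are transcripts of replication-dependent histone genes, which typically end in a stem-loop and carry no poly(A) tail. Germline loss of CDC73 causes hyperparathyroidism-jaw tumour syndrome, and parafibromin is known as a tumour suppressor of the parathyroid gland.

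Whether the siRNA lowered its target could not be read from these arrays. The CDC73 probe gave a signal of 83.5 with CDC73 siRNA and 72.3 with control siRNA, and it was detected on neither array, so the library labelled as CDC73 siRNA is taken at its label. A probe counted as detected when under 1 in 100 of 450 probes for olfactory receptors, a family that served as the dark panel, were as bright on that array, which is a detection p below 0.01. By that measure 14790 probes (30.3%) were detected with CDC73 siRNA and 13680 (28%) with control siRNA, and the lowest detected signal was 108 with CDC73 siRNA and 121 with control siRNA. Of the HEK293 markers, 8 of the 12 on the array were detected, with UCHL1 at 4753 with CDC73 siRNA and 5625 with control siRNA, and CDH2 at 5342 and 5919 in the same order. VIM had 7531 with CDC73 siRNA and 11084 with control siRNA, HOXD10 had 361 and 420, NEFL had 206 and 157, and GATA3 had 148 and 227. After normalization 3 of the 8 detected markers were higher with CDC73 siRNA and 5 lower. NEFM, INA, PAX2 and PROX1 were not detected. Among markers of other cells, 4 of 9 for fibroblasts were detected on at least 1 array, as were 2 of 8 for blood and 1 of 7 for keratin epithelium. Those detected on both arrays were COL1A1, COL3A1, PDGFRA, CD14 and CD68. COL1A1 had 210 with CDC73 siRNA and 278 with control siRNA, and COL3A1 had 183.5 and 124.5. PDGFRA had 151 and 143, CD14 had 154 and 183, and CD68 had 1058 and 985 in the same order. PTPRC, CD3E, HBB, EPCAM and CDH1 were not detected. In RNA of a whole dish, fewer cells of a kind and less RNA per cell cannot be told apart.

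Differences are given on the log2 scale as CDC73 siRNA minus control siRNA after background correction and normalization, and signals are the deposited linear intensities. A gene was measured when it was detected on at least 1 of the arrays and took the value of its brightest named probe. Of 10182 measured genes, 217 (2.13%) lay at least 2-fold higher with CDC73 siRNA, and 185 (1.82%) lay 2-fold lower or more. A larger share lay above 0 (53.9%) than below it (46.1%). Most genes lay close to 0, since the median was 0.04, the 5th and 95th percentiles were -0.71 and 0.77, and 76.8% of genes were within 0.5 of 0. More genes were seen on the CDC73 siRNA array alone (746) than on the control siRNA array alone (167), and for these a difference is only a bound. Among the 9269 genes detected on both arrays the order turned round, with 93 (1.00%) on the higher side of 2-fold and 137 (1.48%) on the lower side. With background correction, offset and scaling varied in 5 ways, 31 of these genes (0.334%) were past 2-fold on the higher side under every scaling, and 58 (0.626%) on the lower side. Among the named genes past 2-fold, the call ended under at least 1 other scaling for TNFRSF10D, TOB2, FLRT3, H2AC18, H2AZ2, HYOU1, PDIA4, RPL14, IDH2, ALG13, PGAM1, FOSL1, ETV5, SPRY1, SPRY4, ANKRD1, DLL1, HLA-B, BST2, TAGLN, LAMA1, CD44, TXNIP and AKR1C2.

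The only error within the arrays is the disagreement between probes of a gene, which is not a replicate error. Over 1988 genes with 2 named probes detected on both arrays, its SD was 0.255 per probe, and the differences of the probe pairs had a correlation of 0.59 across genes. Of 42 genes past 2-fold that had a second such probe, 38 had a second probe on the same side of 0, and 16 had it past 2-fold as well. The signals behind the higher and lower genes also differed in brightness. The 93 higher genes had a median signal of 371 with CDC73 siRNA and 186 with control siRNA, close to the detection limit, whereas the 137 lower genes had medians of 264 with CDC73 siRNA and 582 with control siRNA.

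**Figure D1:**
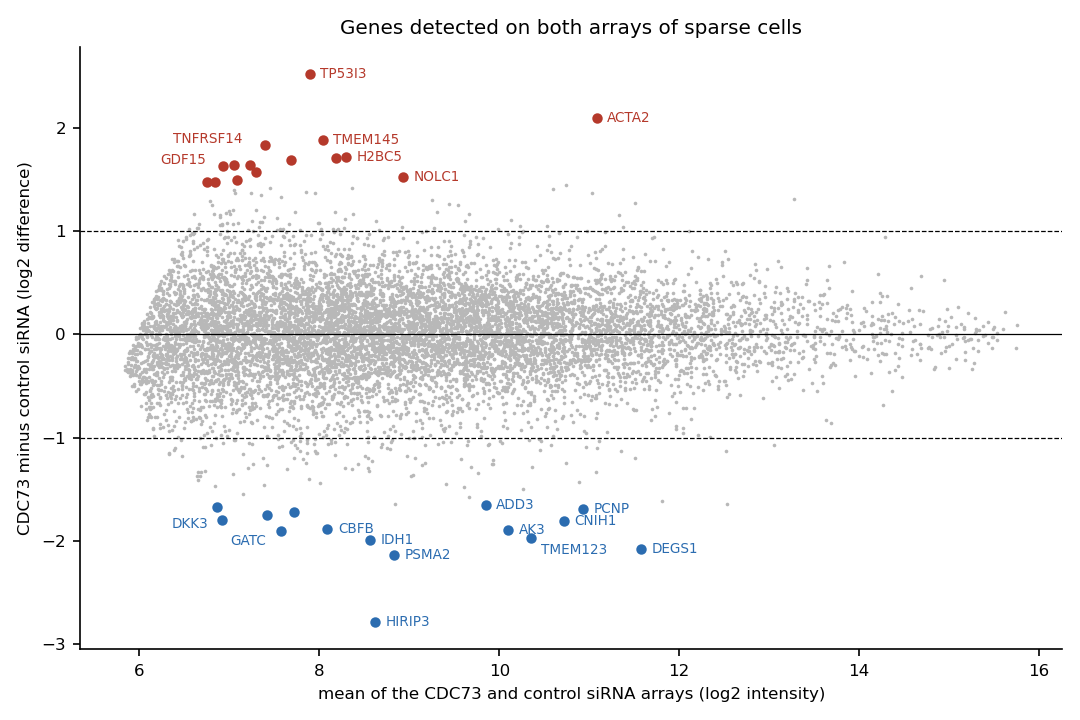
Each point is a gene detected on both arrays of sparse cells. The x axis is the mean of its normalized log2 intensity with CDC73 siRNA and with control siRNA, the y axis is the log2 difference CDC73 siRNA minus control siRNA, and dashed lines mark 2-fold. Red points are the 15 genes named as largest on the higher side and blue points the 15 on the lower side, and the spread of all genes narrows to the right. ACTA2 and DEGS1 lie at brighter levels than most of the named genes.

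The gene with the largest difference on the higher side was TP53I3, a quinone oxidoreductase homologue. It had a signal of 637 with CDC73 siRNA and 155 with control siRNA, which was 5.75-fold higher (2.52). ACTA2, smooth muscle alpha-actin, was next and was the brightest of the 15 genes named on this side, with 4690 with CDC73 siRNA and 1112 with control siRNA, or 4.3-fold (2.10). TNFRSF14, the receptor HVEM, had 377 with CDC73 siRNA and 145 with control siRNA (1.84). The membrane protein gene TMEM145 had 565 against 189 (1.89), and EMP1, which codes for an epithelial membrane protein, had 587 against 212 (1.71). SLC30A3, a zinc transporter, followed with 322 with CDC73 siRNA and 141 with control siRNA (1.64). By selection the control siRNA array was the dim side of each of these genes. All except ACTA2 stayed at or below a signal of 637 on both arrays.

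Several further named genes on the higher side were close to the detection limit on the control siRNA array. GDF15, a stress cytokine of the TGF-beta family, had a signal of 271 with CDC73 siRNA and 127 with control siRNA (1.63). MAGEB2, a cancer/testis antigen gene, had 292 with CDC73 siRNA and 133 with control siRNA (1.64). The decoy TRAIL receptor gene TNFRSF10D had 285 against 137, or 2.83-fold. TOB2, of the antiproliferative BTG/TOB family, had 235 against 123 (1.48), and FLRT3, which codes for a leucine-rich membrane protein, had 248 against 127 (1.48). For TOB2, FLRT3 and TNFRSF10D the difference in the authors' deposited log2 table, which keeps more of the background, was 0.85, 0.93 and 0.94, below 2-fold.

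On the lower side the largest difference belonged to HIRIP3, a partner of the histone chaperone HIRA. Its signal was 207 with CDC73 siRNA and 1095 with control siRNA, 6.9-fold lower (-2.79). PSMA2, an alpha subunit of the proteasome core, had 273 with CDC73 siRNA and 1010 with control siRNA (-2.13). DEGS1, the desaturase that makes ceramide from dihydroceramide, had 1595 against 6643 (-2.08), and its second probe gave -1.32. These genes were well above background with control siRNA, which by selection was the brighter side of each lower gene.

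IDH1, the cytosolic isocitrate dehydrogenase, had 245 with CDC73 siRNA and 816 with control siRNA (-1.99). TMEM123, a membrane protein gene, had 729 against 2749 (-1.97), and AK3, a mitochondrial adenylate kinase gene, had 635 against 2245 (-1.90). GATC, a subunit of the amidotransferase that charges mitochondrial glutamine tRNA, had 154 against 414 (-1.90). CBFB, the partner of the RUNX transcription factors, was at 199 with CDC73 siRNA and 577 with control siRNA (-1.89). CNIH1, a cargo receptor for export out of the endoplasmic reticulum, had 983 against 3381 (-1.81). Its second probe gave -1.12, and all probes of CNIH1 detected on both arrays were lower with CDC73 siRNA.

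The rest of the 15 genes named on the lower side included genes of membrane traffic and signalling. SEC62, part of the translocon of the endoplasmic reticulum, had 149 with CDC73 siRNA and 361 with control siRNA (-1.75), and the SNARE gene VTI1B had 171 against 428 (-1.72). PCNP, a nuclear protein gene, was bright with 1180 against 3788 (-1.69). ADD3, gamma-adducin of the membrane skeleton, had 581 against 1722 (-1.65), and its second probe gave -0.76. DKK3, a secreted protein of the dickkopf family, and KISS1R, the kisspeptin receptor, ended near the detection limit with CDC73 siRNA, at 121 for each, against 277 and 257 with control siRNA (-1.80 and -1.68).

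**Figure D2:**
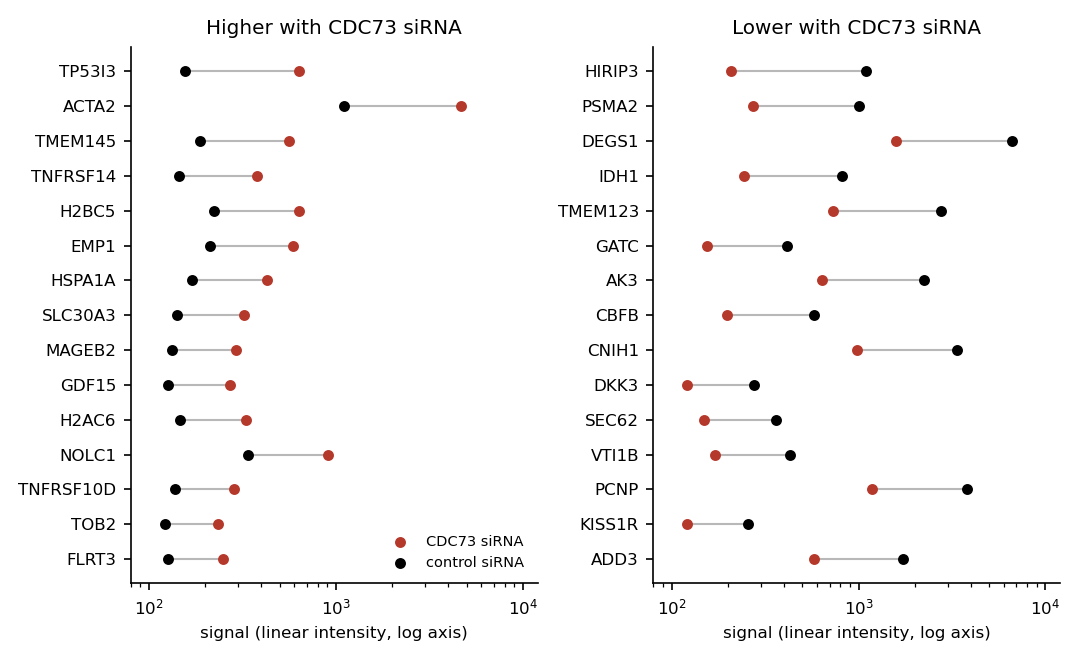
Signals of the 15 genes named on each side, as deposited linear intensity on a log axis. Red points are CDC73 siRNA and black points control siRNA in sparse cells, 1 array each, joined by a grey line. On the left panel every control siRNA point except that of ACTA2 lies at 337 or below, and on the right panel the control siRNA points reach 6643. By selection, control siRNA is the dimmer side on the left panel and the brighter side on the right.

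CDC73 acts within a complex, and the other subunits were all detected on both arrays. PAF1 had 2990 with CDC73 siRNA and 2666 with control siRNA (0.17). SKIC8, shared with the exosome-associated SKI complex, had 2611 against 2836 (-0.12). LEO1 had 479 against 581 (-0.34). RTF1, which promotes H2B ubiquitylation, had 207 against 154 (0.62), the largest difference of the set. CTR9 had 383 against 303 (0.37), but its second probe gave -0.32, so its direction is not settled. None of the 5 measured subunits reached 2-fold.

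Elongation and pausing factors likewise stayed within 2-fold in all 20 measured genes. Of these 14 were above 0, beside 53.9% of all measured genes, with a median of 0.16 beside 0.04. ELL2, a subunit of the super elongation complex, had 244 with CDC73 siRNA and 164 with control siRNA (0.80), while AFF4, the scaffold of that complex, had 480 against 640 (-0.49). SUPT16H of the histone chaperone FACT had 3613 against 2610 (0.49), and SUPT5H of the pausing factor DSIF had 1635 against 1170 (0.48). The 17 measured genes for processing of transcript ends had 9 above 0 and 8 below, and their median was 0.04. CPSF4, a cleavage and polyadenylation factor, was at 6344 with CDC73 siRNA and 4657 with control siRNA (0.50).

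Of 17 measured enzymes of H2B ubiquitylation and histone methylation, 13 were above 0, beside 53.9% of all measured genes, with a median of 0.19. None was 2-fold higher, and 1 was 2-fold lower as it stood but was detected with control siRNA only. The methyltransferase SETD1A had 1045 with CDC73 siRNA and 646 with control siRNA (0.68), and the demethylase KDM5B had 1352 against 854 (0.67). RBBP5, a core subunit of the methyltransferase complexes, had 243 against 308 (-0.45). An enzyme that adds H3 methylation and an enzyme that removes it were thus both on the higher side.

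Among replication-dependent histone genes, 20 of the 57 on the array were measured, and 14 were detected on both arrays. Of these 14, 13 were above 0, beside 51.8% of all 9269 genes detected on both. At least 2-fold higher were 4 of them, beside 1.00% of all genes detected on both, and their median was 0.50 beside 0.02 for all genes detected on both. Named histone genes differ little in sequence, so a probe may read copies of its gene too, and how far that bears on these values was not tested. Their transcripts typically carry no poly(A) tail, and how fully the labelling of RNA captured them was not tested either. Whether the probes of these genes read transcripts with or without a tail was also not tested. The 4 H2A genes and the 3 H2B genes detected on both arrays were all above 0, as were 4 of the 5 H4 genes, whose median was 0.23. No class was tested against another.

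H2BC12 was the brightest H2B gene, with a signal of 14967 with CDC73 siRNA and 6658 with control siRNA (1.31), and its second probe gave 1.41. H2BC5 had 636 against 223 (1.72), with 0.72 from its second probe. H2BC11 had 569 against 419 (0.45). In the H2A class, H2AC6 had 329 with CDC73 siRNA and 147 with control siRNA (1.58). H2AC18 had 1835 against 896 (1.05), and its second probe gave 1.04. H2AC20 had 1211 against 830 (0.54). Where a second probe was present it lay on the same side, and the class medians over genes detected on both arrays were 0.80 for H2A (4 genes) and 1.31 for H2B (3 genes).

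The other classes carried smaller differences or less evidence. H1-2, a linker histone gene and the only H1 gene measured, had 1113 with CDC73 siRNA and 630 with control siRNA (0.82). H4C8 had 227 against 148 (0.88), H4C14 had 342 against 286 (0.28) and H4C12 had 216 against 188 (0.23). H4C3, the brightest histone gene of the set, went the other way with 32325 with CDC73 siRNA and 44063 with control siRNA (-0.33). Of the H3 genes only H3C1 was detected on both arrays, at 137 against 124 (0.29). The 6 histone genes detected on 1 array gave bounds that reached at most 0.56, so no 2-fold difference is measured in any of them.

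Replication-dependent H2B promoters are known to hold the octamer, a site for the POU factor OCT1 and its coactivator, so promoter sequences were searched for its core, TTTGCAT, on both strands in the 250 bases before the start of each gene (RefSeq, GRCh38.p14). The core was found in 4 of the 5 measured H2A genes, 4 of the 5 H2B genes and 1 of 4 H3 genes. It was in none of the 4 H4 genes with a promoter in the table, beside 4.84% of all 27305 genes there. H2AC11 and H2BC11 share a stretch read from opposite strands, as do H2AC20 and H2BC21, so the H2A and H2B counts are not separate. Of the genes with a match, H2AC11, H2BC8, H2BC21 and H3C4 were detected with CDC73 siRNA only. H2BC5 and H2AC18, which were past 2-fold, held no exact match. The stretches of 3 genes are given from the strand of the gene and with the core in capitals, because they come from an H2B gene past 2-fold, an H2A gene past 2-fold and an H2B gene with a smaller difference.
H2BC12 (chr6:27146862-27146938, minus strand, core 48 bases before the start): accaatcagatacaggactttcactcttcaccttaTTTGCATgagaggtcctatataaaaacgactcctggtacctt
H2AC6 (chr6:26124007-26124083, plus strand, core 130 bases before the start, on the other strand): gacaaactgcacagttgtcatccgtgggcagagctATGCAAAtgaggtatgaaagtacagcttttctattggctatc
H2BC11 (chr6:27132800-27132876, minus strand, core 46 bases before the start): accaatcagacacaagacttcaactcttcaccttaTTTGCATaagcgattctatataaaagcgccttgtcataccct
The H2BC12 and H2BC11 stretches are close in sequence and in the place of the core, while the differences of the genes were 1.31 and 0.45. A match is a description of these letters and not evidence of binding.

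Histone variant genes, which carry poly(A) tails and are expressed outside S phase, were mixed. All 11 measured genes were detected on both arrays, 6 were above 0 and 5 below, and their median was 0.07, which turned to -0.07 with median scaling. MACROH2A2 had 6194 with CDC73 siRNA and 3698 with control siRNA (0.81), and H2AJ had 476 against 341 (0.51). H2AZ2 had 137 against 215 (-1.004), and CENPA, the histone H3 of centromeres, had 837 against 1038 (-0.36).

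Histone mRNA processing factors and histone chaperones were also mixed, with 11 of 19 measured genes above 0 and a median of 0.09, although this list holds the gene lowest of all, HIRIP3. ASF1A, a chaperone that hands H3 and H4 to HIRA, had 292 with CDC73 siRNA and 467 with control siRNA (-0.84). HAT1, which acetylates new H4, had 880 against 1505 (-0.83), and its second probe gave -0.62. MCM2, a helicase subunit that also binds histones, had 3234 against 2165 (0.56).

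**Figure D3:**
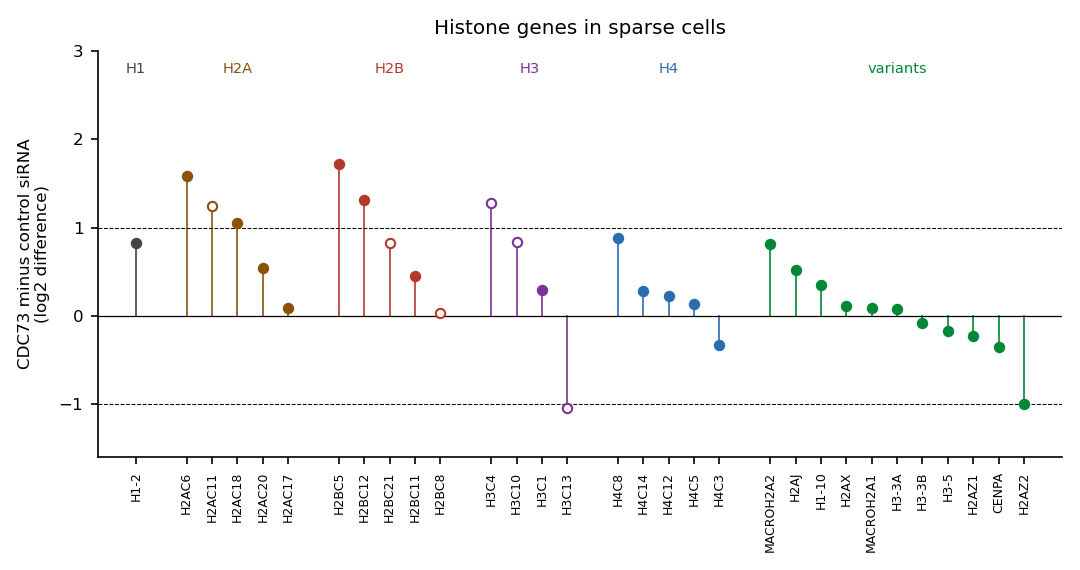
Log2 difference, CDC73 siRNA minus control siRNA in sparse cells, for each measured histone gene by class. Filled points were detected on both arrays, open points on 1 array only, and dashed lines mark 2-fold. All filled H2A and H2B points lie above 0, and H4C3 and several variants lie below it.

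Apoptosis regulators of the BCL2 family had 10 of 16 measured genes above 0, beside 53.9% of all measured genes. Their median was 0.21 beside 0.04, and none was past 2-fold. HRK, an activator of apoptosis, had 228 with CDC73 siRNA and 145 with control siRNA (0.95). PMAIP1, known as NOXA, had 4293 against 2547 (0.79), but its second probe gave -0.01. BID, which links death receptors to mitochondria, had 325 against 499 (-0.75), with -0.33 from its second probe. Members that promote cell death were thus found on both sides.

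Genes of the G1 phase held some of the brightest differences on the lower side. CCND1, cyclin D1, had 2171 with CDC73 siRNA and 6643 with control siRNA, 3.07-fold lower (-1.62). CCND2, cyclin D2, had 2050 against 4722 (-1.20), and its second probe gave -1.16. E2F2, a transcription factor that drives S phase genes, had 1810 against 2741 (-0.59). On the higher side 1 gene of this list was past 2-fold, the cell cycle inhibitor gene CDKN1A, with 3915 with CDC73 siRNA and 1955 with control siRNA (1.04). Across the 21 measured G1 cyclins, kinases and inhibitors, 10 were above 0, beside 53.9% of all measured genes, and 11 below, with a median of -0.26. At least 2-fold lower were 2, beside 1.82% of all measured genes, and 1 was 2-fold higher, beside 2.13%.

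Of 28 measured DNA replication and G1/S genes, all detected on both arrays, 21 were above 0, beside 51.8% of all such genes. Their median was 0.25, and none was past 2-fold. DSCC1, of the clamp loader for cohesion, had 233 with CDC73 siRNA and 171 with control siRNA (0.60). The origin factor ORC1 had 404 against 282 (0.58), and POLD1, the catalytic subunit of polymerase delta, had 641 against 433 (0.57). POLE2, a subunit of polymerase epsilon, had 587 against 901 (-0.68).

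Of 31 mitotic genes, all detected on both arrays, 20 were below 0, beside 48.2% of all such genes, and their median was -0.15. TRIP13, an ATPase of the spindle checkpoint, stood out with 1252 with CDC73 siRNA and 3343 with control siRNA (-1.43). CKS1B, which binds cyclin-dependent kinases, had 3081 against 5854 (-0.92) and -0.75 from its second probe, and its relative CKS2 had 6462 against 10245 (-0.62) and -0.73. KIF20A, a kinesin of cytokinesis, had 2388 against 1479 (0.67). Apart from TRIP13 no mitotic gene was past 2-fold.

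Chaperones and folding enzymes of the endoplasmic reticulum had 16 of 20 measured genes above 0, all detected on both arrays, beside 51.8% of all such genes, with a median of 0.34. At least 2-fold higher were 3, beside 1.00% of all such genes, and of these only HSPA5 was so under all 5 scalings. HSPA5, the chaperone BiP, which also holds the stress sensors of this compartment in check, had 3017 with CDC73 siRNA and 1098 with control siRNA, 2.73-fold higher (1.45). HYOU1, its exchange factor, had 425 against 225 (1.08), with 0.65 from its second probe. PDIA4, a disulfide isomerase, had 318 against 183 (1.01). XBP1, a transcription factor of the unfolded protein response, had 1874 against 1240 (0.60), and its second probe gave 0.46.

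Not every gene of this group was on the higher side. The 4 genes below 0, picked out after their values were seen, were EDEM1 (-0.44), DNAJB9 (-0.37), DERL2 (-0.21) and DERL1 (-0.17), which act in the disposal and handling of misfolded protein. EDEM1 was at -0.006 in the authors' deposited table, and another probe of DERL2 gave -1.29. HSP90B1, the chaperone GRP94 and a bright member of the group, had 15032 with CDC73 siRNA and 13548 with control siRNA (0.26). The size of the difference thus varied widely between chaperones of the same compartment.

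These genes are known targets of ATF6 and XBP1 through the endoplasmic reticulum stress response element, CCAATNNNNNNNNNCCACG, and its second form ATTGGNCCACG. Both strands of the 250 bases before each start were searched (RefSeq, GRCh38.p14). The element was found in 7 of the 19 measured genes with a promoter in the table, beside 0.0916% of all 27305 genes there. The second form was found in 2 of 19, beside 0.0659%. PDIA4 had no exact match to either form. HSPA5 and XBP1 are shown with the element, and HYOU1 with 2 matches of the second form on the other strand, since these genes carry the differences above. Capitals mark each match, and sequences follow the strand of the gene.
HSPA5 (chr9:125241356-125241444, minus strand, match begins 66 bases before the start): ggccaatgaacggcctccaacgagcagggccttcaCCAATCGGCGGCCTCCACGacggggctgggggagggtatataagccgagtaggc
XBP1 (chr22:28800570-28800656, minus strand, match begins 52 bases before the start): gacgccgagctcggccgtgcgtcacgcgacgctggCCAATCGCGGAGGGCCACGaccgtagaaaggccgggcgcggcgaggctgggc
HYOU1 (chr11:119057239-119057425, minus strand): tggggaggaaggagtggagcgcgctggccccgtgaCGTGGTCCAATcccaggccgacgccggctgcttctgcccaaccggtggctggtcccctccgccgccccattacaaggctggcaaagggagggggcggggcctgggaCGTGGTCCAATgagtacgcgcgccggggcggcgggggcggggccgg
Genes with a match were found at both large and small differences, since HSP90B1 holds the element too.

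Other arms of the stress response were closer to all genes. The 21 measured ATF4 targets had 12 above 0 and a median of 0.03. PPP1R15A, which codes for the phosphatase subunit GADD34, had 3205 with CDC73 siRNA and 1775 with control siRNA (0.83), while STC2, a secreted stanniocalcin, had 180 against 249 (-0.70). PSPH, of serine synthesis, had 589 against 373 (0.69), with 0.95 from its second probe.

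Heat shock proteins and co-chaperones had 11 of 19 measured genes above 0, beside 53.9% of all measured genes. Their median was 0.08, which turned to -0.03 with median scaling. HSPA1A had 427 with CDC73 siRNA and 169 with control siRNA (1.69), and HSPA1B had 30112 against 22162 (0.57). These are near-identical copies of the inducible HSP70 gene whose signals cannot be assigned with certainty. The co-chaperone HSPH1 had 3900 against 2643 (0.62).

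Ribosomal protein, respiratory chain and proteasome genes held many small negative differences in sparse cells. Over the same measured genes the medians in confluent cells were above 0. They were 0.06 for cytosolic and 0.28 for mitochondrial ribosomal proteins, 0.13 for the respiratory chain and ATP synthase, and 0.15 for the proteasome. Cytosolic ribosomal proteins had 38 of 48 measured genes below 0, all detected on both arrays, beside 48.2% of all genes detected on both, with a median of -0.12 and 1 past 2-fold. That gene was RPL14, with 1067 with CDC73 siRNA and 2084 with control siRNA (-1.02), and its second probe gave -0.51. RPS13 had 14869 against 25308 (-0.69), and RPL37 was on the other side with 388 against 271 (0.58).

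Mitochondrial ribosomal proteins had 41 of 55 measured genes below 0, beside 46.1% of all measured genes, and a median of -0.15. MRPL1 had 255 with CDC73 siRNA and 535 with control siRNA (-1.29), MRPL50 had 690 against 1568 (-1.26) and MRPS16 had 958 against 1753 (-0.93). Respiratory chain and ATP synthase genes had 30 of 44 below 0, beside 48.2% of all genes detected on both arrays. Their median was -0.09, and none was past 2-fold. The largest of them was NDUFB3, of complex I, with 3706 against 6203 (-0.71), and its second probe gave -0.26.

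Of 33 genes for aminoacyl-tRNA synthetases and the mitochondrial amidotransferase, all detected on both arrays, 22 were above 0, beside 51.8% of all such genes. Their median was 0.10 beside 0.02, and GATC (-1.90) was the only one past 2-fold. The mitochondrial enzymes AARS2, with 679 with CDC73 siRNA and 398 with control siRNA (0.80), and EARS2, with 425 against 263 (0.79), were the largest on the higher side. Among 20 measured ribosome biogenesis genes the median was 0.06, and NOLC1, a nucleolar phosphoprotein that carries assembling particles, stood apart with 912 against 337 (1.53). Of 33 proteasome genes 21 were below 0, beside 48.2% of all genes detected on both arrays, with a median of -0.07. PSMA2 was the only proteasome gene past 2-fold, and PSMC3, an ATPase of the cap, had 6701 against 4930 (0.50).

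Single enzymes of metabolism, rather than whole pathways, carried the large differences. In the citrate cycle list 11 of 20 genes were above 0 with a median of 0.08, yet IDH2, the mitochondrial isocitrate dehydrogenase, had 338 with CDC73 siRNA and 649 with control siRNA (-1.09), on the same side as IDH1. ACLY, which makes cytosolic acetyl-CoA from citrate, had 1536 against 2994 (-0.96), and its second probe gave -1.13. PDHB, a subunit of pyruvate dehydrogenase, had 3549 against 5910 (-0.72). In glycolysis 15 of 23 genes were above 0, beside 51.8% of all genes detected on both arrays, with a median of 0.06. PGAM1, a mutase, had 984 against 1923 (-1.02), with -0.51 from its second probe.

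Lipid genes showed the same picture. Of 19 measured genes of ceramide and sphingolipid synthesis 11 were below 0, beside 46.1% of all measured genes, with a median of -0.09. Beside DEGS1, UGCG, which adds glucose to ceramide, had 166 with CDC73 siRNA and 242 with control siRNA (-0.80), and the ceramide synthase CERS2 had 679 against 978 (-0.59) and -0.76 from its second probe. Cholesterol and fatty acid synthesis had 11 genes on each side of 0 and none past 2-fold.

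In the secretory pathway, 17 of 23 measured genes of N-glycan assembly were below 0, beside 46.1% of all measured genes. Of the 21 detected on both arrays 15 were below 0. The median was -0.27, the lowest median of the lists apart from cell type markers. ALG13, which adds an early sugar to the dolichol carrier, had 520 with CDC73 siRNA and 1006 with control siRNA (-1.04), with -0.66 from its second probe. ALG8 had 1997 against 3246 (-0.68) with -0.67 from its second probe, and ALG6 had 667 against 973 (-0.61). In transport between the endoplasmic reticulum and the Golgi, 15 of 23 measured genes were below 0, beside the same 46.1%, with a median of -0.12. SEC16A, which organises exit sites, was higher at 3015 against 1705 (0.80).

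**Figure D4:**
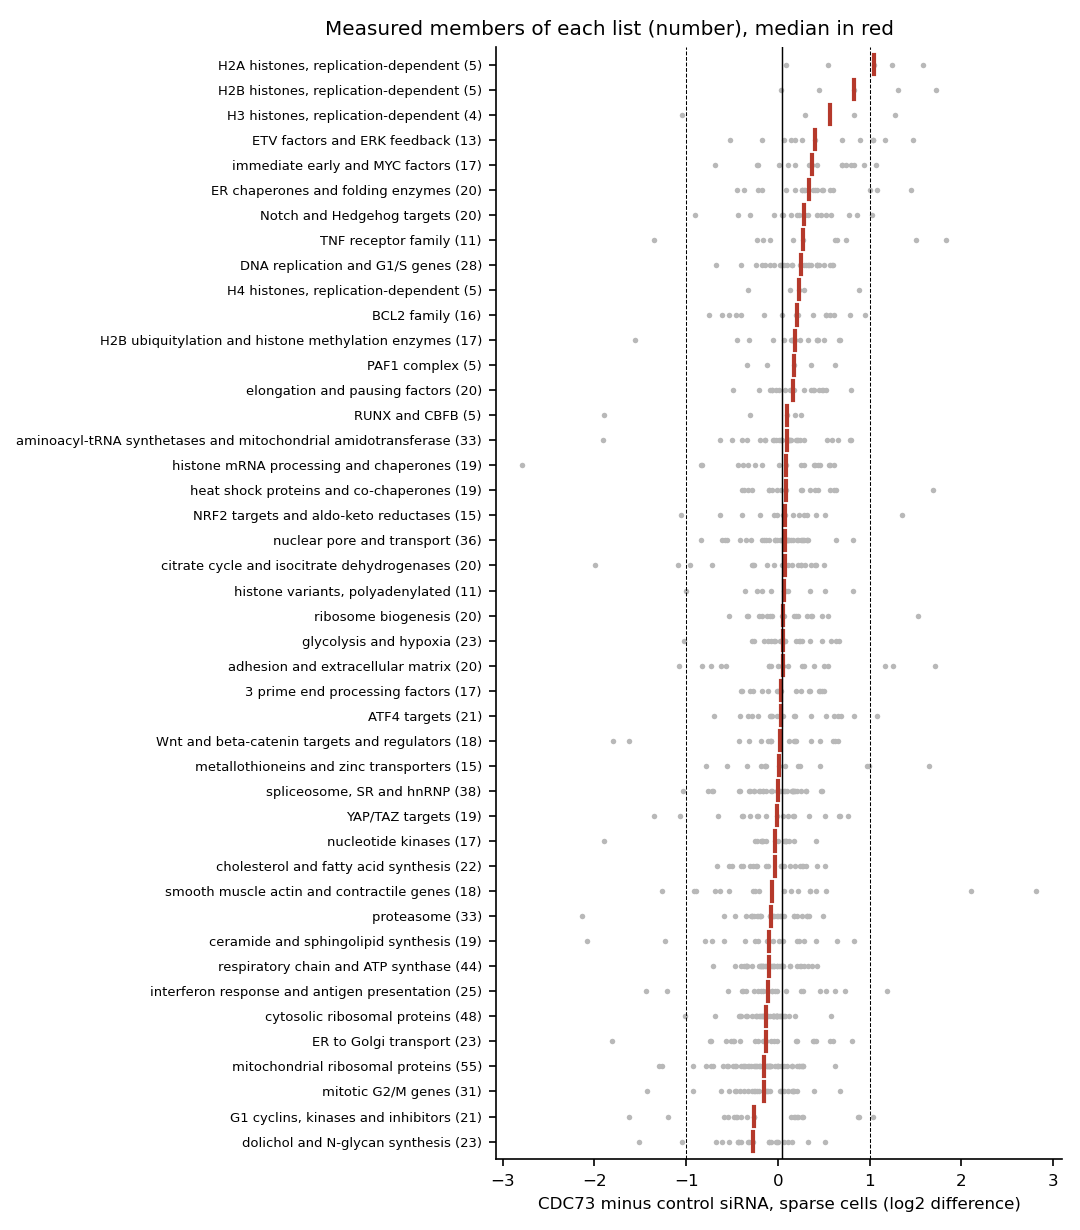
Log2 differences, CDC73 siRNA minus control siRNA in sparse cells, of the measured members of the lists described, with at least 3 measured genes each. Grey points are genes, red bars are list medians, the solid line is the median of all measured genes (0.04) and dashed lines mark 2-fold. Histone H2A and H2B lists lie at the top and dolichol and N-glycan synthesis at the bottom, and most lists have medians near the solid line.

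Growth factor signalling was represented by immediate early genes and by the ETV factors and feedback inhibitors of ERK. Of 17 measured immediate early genes 14 were above 0, beside 53.9% of all measured genes, with a median of 0.37. Of the 14 detected on both arrays 11 were above 0, beside 51.8% of all such genes, with a median of 0.34. FOSL1 had 231 with CDC73 siRNA and 140 with control siRNA (1.07), EGR1 had 533 against 298 (0.93) and FOSB had 349 against 219 (0.80). JUN, chosen after its value was seen, was on the other side with 1117 against 1737 (-0.69).

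Among 13 measured ETV factors and ERK feedback genes 11 were above 0, beside 53.9% of all measured genes, with a median of 0.41. Of the 11 detected on both arrays 9 were above 0, beside 51.8% of all such genes, with a median of 0.27. At least 2-fold higher were 3 of the 11, beside 1.00% of all such genes. ETV5 had 560 with CDC73 siRNA and 274 with control siRNA (1.17). The Sprouty inhibitors SPRY1, with 766 against 387 (1.04) and 0.70 from its second probe, and SPRY4, with 202 against 129 (1.04), were also at least 2-fold higher. ETV4 had 222 with CDC73 siRNA and was not detected with control siRNA, at 119, and its difference was 0.87 in the authors' deposited table, so no 2-fold difference is measured in it. For SPRY1 and SPRY4 that table gave 0.91 and 0.70, below 2-fold.

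Notch and Hedgehog genes had 16 of 20 measured genes above 0, all detected on both arrays, beside 51.8% of all such genes, and a median of 0.28. The ligand genes DLL1, with 327 with CDC73 siRNA and 186 with control siRNA (1.03), and JAG1, with 412 against 244 (0.86), led the group with HEYL, a target factor, at 1006 against 592 (0.77). GLI1, a target and effector of Hedgehog signalling, had 113 against 161 (-0.90). The larger Notch differences were thus on the higher side, and the Hedgehog factor GLI1 was on the lower side close to the detection limit.

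Of 19 measured YAP/TAZ targets 9 were above 0, with a median of -0.01, and of the 16 detected on both arrays 6 were above 0 and 10 below, with a median of -0.18. TNFRSF12A, the receptor FN14, had 608 with CDC73 siRNA and 1459 with control siRNA (-1.35), and ANKRD1, a much used YAP reporter gene, had 720 against 1436 (-1.07). MYOF, a membrane repair protein gene, was higher at 614 against 370 (0.77). Wnt and beta-catenin genes had 9 of 18 above 0 and a median of 0.02, which was -0.08 over the 16 detected on both arrays. The Wnt inhibitor DKK1 had 244 against 174 (0.65) and SFRP1 had 478 against 322 (0.62), on the other side from DKK3.

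In the list of RUNX genes and their partners, the measured genes other than CBFB stayed within 0.31 of 0. RUNX3 had 467 with CDC73 siRNA and 553 with control siRNA (-0.31), and RUNX1T1 had 192 against 168 (0.25). Interferon and antigen presentation genes had 17 of 25 measured genes below 0, beside 46.1% of all measured genes, and a median of -0.11. HLA-B had 205 with CDC73 siRNA and 391 with control siRNA (-1.21), and HLA genes share long stretches of sequence that a probe may not separate. BST2, a restriction factor that tethers viruses, was higher at 379 against 193 (1.19).

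Contractile genes other than ACTA2 lay on both sides of 0. Of the 18 measured genes of that list 9 were above 0 and 9 below, with a median of -0.07, which was 0.004 in the authors' deposited table and -0.20 over the 17 detected on both arrays. TAGLN, transgelin of smooth muscle, had 155 with CDC73 siRNA and 289 with control siRNA (-1.26), TPM1, tropomyosin, had 1179 against 2133 (-0.89) with -0.85 from its second probe, and the myosin light chain gene MYL9 had 109 against 154 (-0.92). MYBPHL, a relative of cardiac myosin-binding protein, had 278 with CDC73 siRNA and was not detected with control siRNA, at 92.3, and its difference was 1.62 in the authors' deposited table.

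Adhesion and matrix genes were split, with 12 of 20 above 0, beside 53.9% of all measured genes, and a median of 0.05. LAMA1, a laminin chain, had 230 with CDC73 siRNA and 130 with control siRNA (1.26), beside EMP1 on the same side. CD44, the hyaluronan receptor, had 615 against 1232 (-1.08), and the integrin gene ITGAV had 220 against 339 (-0.83). In the TNF receptor family 7 of 11 were above 0, beside 51.8% of all genes detected on both arrays, with a median of 0.27. TNFRSF10B, a death receptor for TRAIL, had 2211 against 1310 (0.74) with 0.47 from its second probe, so TNFRSF14, TNFRSF10D and TNFRSF10B were higher while TNFRSF12A was lower.

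Redox genes gave 9 of 15 above 0, beside 51.8% of all genes detected on both arrays, and a median of 0.08. TXNIP, which binds thioredoxin, had 317 with CDC73 siRNA and 158 with control siRNA (1.35), and the aldo-keto reductase gene AKR1C2 had 250 against 450 (-1.06). AKR1C genes are near-identical copies, so its signal may be shared. Zinc transporters and metallothioneins had 8 of 15 above 0 with a median of 0.01, which turned to -0.03 with median scaling and to -0.06 over the 14 detected on both arrays, and SLC39A14, a zinc and iron importer, had 868 against 445 (0.99).

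Genes of splicing and nuclear transport were close to the whole. The 38 spliceosome, SR and hnRNP genes had a median of -0.001, and SRSF7, a splicing regulator, was the only one past 2-fold, at 1649 with CDC73 siRNA and 3404 with control siRNA (-1.04). Its relative SRSF3 had 964 against 1568 (-0.76) with -0.56 from its second probe. Of 36 nuclear pore and transport genes 22 were above 0, beside 53.9% of all measured genes. None was past 2-fold, and NUP35 had 162 against 242 (-0.84).

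Genes detected on 1 array were set against the detection limit of the other, on the scale left by background correction. That scale widens differences of dim probes, so the values of the authors' deposited table are given here in place of a fold. On the higher side the largest after MYBPHL were CGA, the alpha chain of glycoprotein hormones, at 224 with CDC73 siRNA and 103 with control siRNA (1.19 in that table), and ETV4. The transcription factor genes EBF2 and LHX3 had 0.80 and 0.96 in that table, below 2-fold. On the lower side RFK, which makes flavin mononucleotide, had 106 with CDC73 siRNA and 208 with control siRNA, or -0.85 in that table. FAM3C, a secreted protein gene, had 89.1 against 201, or -1.27 in that table, and another of its probes, detected on both arrays, gave -1.44. NUS1, a subunit of the enzyme that makes dolichol, had -0.83, IL37 had -0.83 and CALCB had -0.88 in that table, each below 2-fold. On the background-corrected scale, with undetected values set at the detection limit or at their own value where higher, 111 of 10182 genes (1.09%) were past 2-fold on the higher side and 155 (1.52%) on the lower side.

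Confluent cells gave a further pair of arrays whose differences played no part in choosing the genes. These arrays are not fully separate, since all 4 were normalized together and the probe of each gene was its brightest over all 4. Of the 93 genes at least 2-fold higher in sparse cells, 88 were detected on all 4 arrays, and 74 of these (84.1%) were higher with CDC73 siRNA in confluent cells too, 19 of them at least 2-fold. Of the 137 lower genes 135 were detected on all 4 arrays, 126 of these (93.3%) were lower in confluent cells too and 65 at least 2-fold. Among all 9047 genes detected on the 4 arrays, 49.5% were higher and 50.5% lower in confluent cells, and 1.7% and 3.04% were past 2-fold. The genes past 2-fold in sparse cells therefore lay on the same side in confluent cells more often than genes at large, with 1 pair of arrays at each density and no test.

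For the genes past 2-fold under all 5 scalings, the shares were 27 of 30 on the higher side and 56 of 57 on the lower side. The median confluent difference was 0.81 for the higher genes and -1.23 for the lower genes. TP53I3 had 1317 with CDC73 siRNA and 308 with control siRNA in confluent cells (3.01), H2BC5 had 1082 against 286 (2.85) and HSPA5 had 2370 against 1139 (1.68). CCND1 had 658 with CDC73 siRNA and 5171 with control siRNA in confluent cells (-2.62), a larger difference than in sparse cells, and TRIP13 had 486 against 3323 (-2.48).

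Some differences were seen at the sparse density and not at the other. CDKN1A had 5736 with CDC73 siRNA and 8609 with control siRNA in confluent cells (-0.19), and HSPA1A had 138 against 204 (-0.29). SLIT2, a guidance ligand singled out after its values were seen, had 2708 with CDC73 siRNA and 1007 with control siRNA in sparse cells (1.42), while its confluent difference was -0.04. ANKRD1 had 341 against 285 in confluent cells (0.99), opposite to its sparse difference of -1.07. The deposited confluent signals of ANKRD1 lie closer together than 0.99, and those of CDKN1A further apart than -0.19. Total signal in confluent cells was 22948100 with CDC73 siRNA and 28273400 with control siRNA, before background correction and normalization. Whether the differences of these genes depend on density or on that scaling was not tested, since each rests on 4 single arrays.

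**Figure D5:**
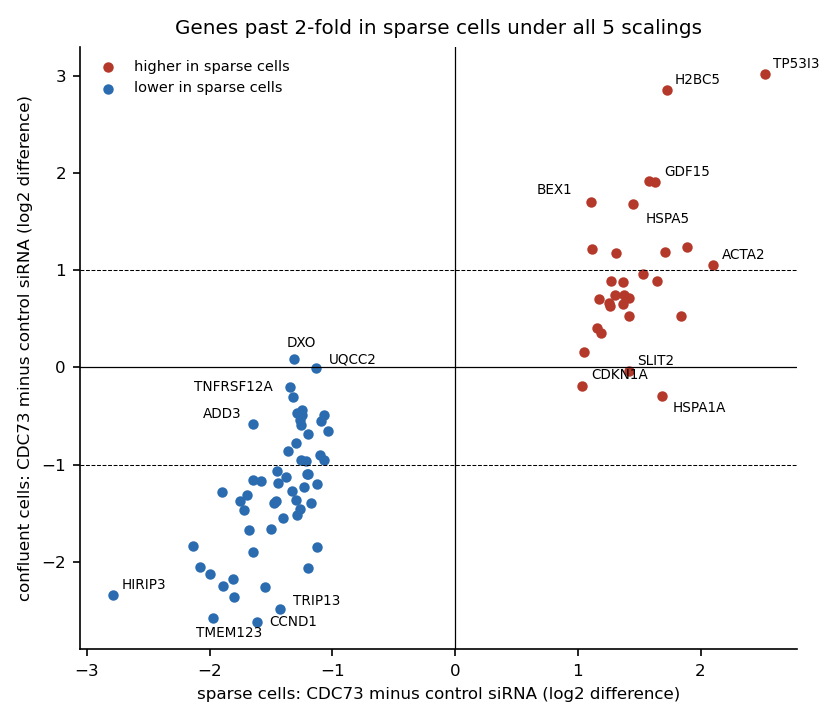
Genes at least 2-fold different between CDC73 siRNA and control siRNA in sparse cells under all 5 scalings and detected on all 4 arrays. The x axis is the log2 difference CDC73 siRNA minus control siRNA in sparse cells and the y axis the same difference in confluent cells, with red for genes higher and blue for genes lower in sparse cells, and dashed lines at 2-fold in confluent cells. Of the red points 27 of 30 and of the blue points 56 of 57 lie on the same side of 0 on both axes, and HSPA1A, CDKN1A, SLIT2 and DXO lie on opposite sides.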

How the data were processed

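Per the labels' protocols, biotinylated cRNA was made from total RNA for Illumina bead arrays. The authors deposited linear probe intensity per array, per the file headers, with background left in and neither detection p-values nor bead statistics. A second table deposited by the authors holds log2 values, of median 6.42 on every array, and correlates with log2 intensity at 0.998 to 0.9996. The software behind both tables is not given in the sources used here. No column lacked a sample (0).

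Of 49576 probes, 48803 had values, 28098 carried 1 symbol of the platform annotation, 13 carried several and 20692 carried none here. The 18852 symbols were updated through Entrez numbers to RefSeq, and 39 probes had a number that RefSeq did not hold. Total signal was 25283800 with CDC73 siRNA and 26276100 with control siRNA in sparse cells. In confluent cells it was 22948100 and 28273400 in the same order. The design had relied on detection p-values where present, and otherwise on 450 olfactory receptor probes, which were used and then left out of the genes. The 4 arrays were corrected with normexp (limma 3.58.1, R 4.3.3) against this panel, given an offset of 16, quantile normalized and converted to log2. A gene took its named probe of highest mean over the 4 arrays. For a gene undetected on an array, the bound used the higher of that array's lowest detected value and the probe's own. No test was possible with 1 array per group, and the precision is limited by the number of arrays. The normalization was tested on simulated data. Python 3.11.15, pandas 2.3.3 and matplotlib 3.10.9 made the counts and plots.

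The members and the 50 lists (1165 genes) were chosen with earlier results of these data known, and support nothing independently. Named genes were the PAF1 complex, the 15 largest in each direction among genes detected on both arrays, at least 2-fold, with the same sign in all 5 scalings and no second probe of opposite sign, the 5 largest bounds each way, and at most 4 genes per list by size of difference. Others named were chosen after their values were seen. Provisional symbols were not named. The alternatives, 10 in all, left out the background correction or used an offset of 50, scaling to the median, the sparse arrays normalized alone, the log2 table of the authors, a looser detection limit (p under 0.05), genes kept without any detection filter, both arrays required, the mean of a gene's probes, and undetected values at their bounds. The result of 1 list is not reported here.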

Additional observations from a re-analysis of the deposited data

Results flagged for a closer look

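In 5 lists the median over genes detected on all 4 arrays lay on opposite sides of 0 at the 2 densities, by at least 0.1 each. The differences between densities were not tested, since each group had 1 array. DNA replication and G1/S genes (28) had a median of 0.247 in sparse cells and -0.321 in confluent cells. For Notch and Hedgehog targets (20) the medians were 0.281 in sparse and -0.291 in confluent cells. The enzymes of H2B ubiquitylation and histone methylation (14) gave 0.214 in sparse and -0.221 in confluent cells. Aminoacyl-tRNA synthetases with the mitochondrial amidotransferase (32) gave 0.103 and -0.108 in the same order. Mitochondrial ribosomal proteins (54) ran the other way, with -0.145 in sparse and 0.302 in confluent cells.

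Probes without a single gene symbol were left out of all gene results. Of 1784 such probes detected on both sparse arrays, 11 (0.617%) were at least 2-fold higher with CDC73 siRNA and 27 (1.51%) at least 2-fold lower, between -2.24 and 1.87.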

How the results depend on the processing

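No paired analysis was possible because each group had 1 array, and for the same reason no array could be left out. Genes at least 2-fold higher numbered 217 as reported, and 37 without background correction, 57 with an offset of 50, 40 in the authors' log2 table, 93 with detection on both arrays and 111 with bounds, and for these counts fewer genes or shrunken differences follow from the construction of the alternative. Genes at least 2-fold lower numbered 185, and 63, 98 and 74 under the first 3 of these. The share of higher genes among all past 2-fold was 54% as reported, and 37% without background correction, 36.8% with the offset of 50, 35.1% in the authors' table, 40.4% with detection on both arrays and 41.7% with bounds, while median scaling gave 61.6%. The H2A median of 1.05 became 0.60 without background correction, 0.70 with an offset of 50, 0.57 in the authors' table, 0.54 at a detection p under 0.05, 0.20 with no filter and 0.54 with bounds. The H2B median of 0.83 became 0.44, 0.55, 0.45, 0.45, 0.23 and 0.56 under the same alternatives, and 1.31 with detection on both arrays. The H3 median of 0.56 became 0.28 without background correction, 0.15 at a detection p under 0.05, 0.15 with no filter, 0.29 with detection on both arrays and 0.21 with bounds, and the H4 median of 0.23 became -0.039 with no filter. The cause of these list shifts was not tested. Against the SD between probes, 19 of 470 list values and 142 of 2030 values of named genes moved by more under the alternatives. That limit is wide for a median over many genes, and the largest genes were chosen for keeping their sign under other scalings, so neither count shows stability. Dim genes are limited most, since the probe SD was 0.274 among the dimmest and 0.234 among the brightest genes with 2 probes.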
